A study of Drosophila melanogaster with 9 samples.

Results

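The comet genes of *Drosophila melanogaster* are testis genes whose transcripts gather at the tail ends of elongating spermatids, in a pattern likened to a comet. The group taken here holds 7 genes, *schuy*, *hale*, *soti*, *cola*, *sunz*, *whip* and *boly*, and each was read from every probe set that the platform's annotation gives to that gene alone. By this rule 5 of the 7 genes were measured, with 1 probe set each, out of 11982 genes with a probe set of their own and 18952 probe sets in all. *cola* has 2 probe sets, but the annotation gives them to *swif* as well, and *whip* has none that is named here, so neither gene has a value below. RNA came from whole testes of males aged 0 to 2 days and kept at 30°C, and was hybridized to 9 Affymetrix Drosophila Genome 2.0 arrays, 3 per genotype. The *bam*≫*tbrd-2RNAi* males (knockdown) carried 2 copies of the *bam*-Gal4 driver, on chromosomes X and III, and 1 copy of the hairpin transgene *tbrd-2RNAi* on chromosome III. The *bam*-Gal4 control males carried the 2 driver copies with no hairpin, and the undriven control males carried 1 copy of the hairpin with no driver. The labels also place a homologue of chromosome III marked with *Sb* in both controls and not in the knockdown males. The *bam* promoter acts in late spermatogonia and early spermatocytes, so the hairpin was driven in the germline before meiosis, whereas the RNA included the somatic cells of the testis and any tissue dissected with it. Each array had RNA of its own, pooled from 30 animals by the labels and from fewer by the methods.

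Spermatids build their tails and repackage their DNA largely from mRNA that was made long before, at the spermatocyte stage, and kept untranslated until use. The comet genes and the related cup genes are known exceptions, with transcription in post-meiotic spermatids and mRNAs that move to the distal ends of the growing cysts. The best studied comet product is Scotti, encoded by *soti*, which inhibits a ubiquitin ligase built on Cullin-3 and thereby restrains caspases in a gradient along the spermatid tail before the spermatids separate from each other. The other measured members, *schuy*, *hale*, *sunz* and *boly*, were named from the comet pattern of their transcripts. tBRD-2 is a bromodomain protein of primary spermatocytes, and the comparison asks how the comet transcripts stand in testes with little *tbrd-2* mRNA.

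Of the 5 measured comet genes, *schuy*, *hale*, *sunz* and *boly* fell in knockdown testes against both controls, to between 0.629 and 0.737 times the control level, and *soti* did not pass the test in either comparison. Here a gene is said to have fallen or risen where limma, fitted to all 9 arrays, gave an adjusted p (Benjamini-Hochberg, over all probe sets) under 0.05. The counts of lower comet genes were 4 of 5 against *bam*-Gal4, where 8.07% of all probe sets were lower, 4 of 5 against the undriven control, where 9.10% were lower, and 4 of 5 against both controls, where 5.88% were lower. Levels are log2 values of array signal normalized by RMA, and a log2-fold change is the difference between genotype means, knockdown minus control. The study's own rule further requires a change of 1 or more on the log2 scale. By that rule limma called 0 of the 5 genes lower in either comparison, with 0.496% of all probe sets called lower relative to *bam*-Gal4 and 0.628% relative to undriven testes, while 4 were lower in each comparison at an unadjusted p under 0.05. The median log2-fold change of the 5 genes was −0.48 relative to *bam*-Gal4 and −0.61 relative to undriven testes, beside −0.02 and −0.03 over all probe sets. In whole testes, fewer cells that hold a transcript and less of the transcript per cell cannot be told apart.

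**Figure D1:**
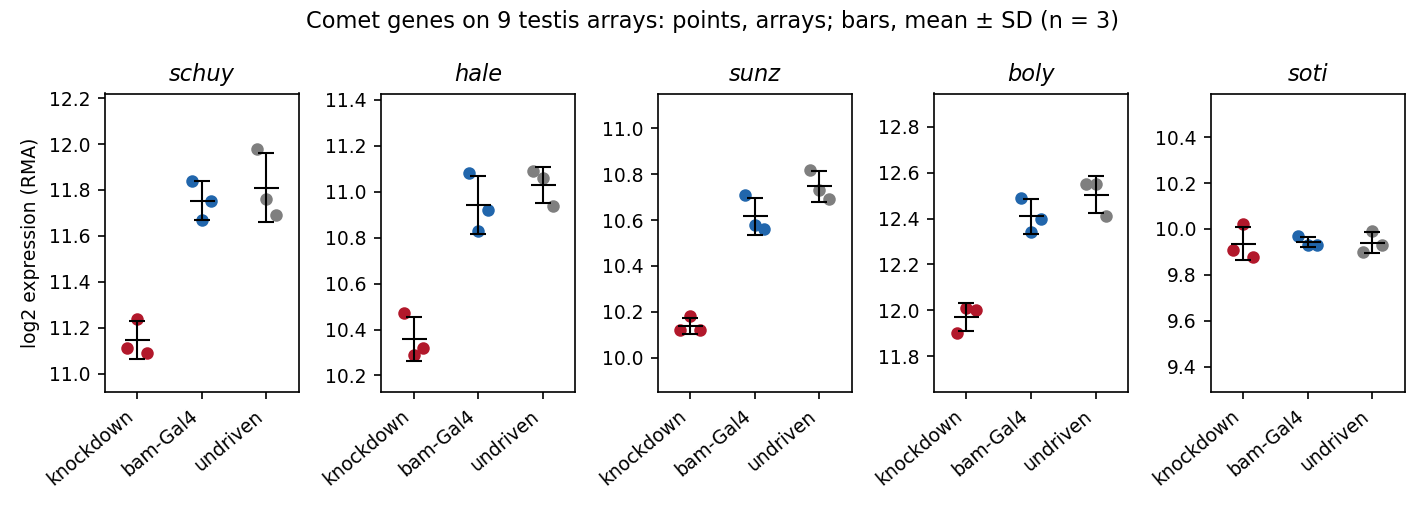
Log2 expression values (RMA, y axis) of the 5 measured comet genes on the 9 arrays, with knockdown, *bam*-Gal4 and undriven arrays as points and the mean ± SD of each genotype (n = 3) as bars; every panel spans the same height. The 3 knockdown arrays lie below all 6 control arrays for *schuy*, *hale*, *sunz* and *boly*, and all arrays lie between 9.88 and 10.02 for *soti*.

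*schuy* (CG17736, chromosome arm 3L) had log2 values of 11.11, 11.24 and 11.09 on the knockdown arrays, against 11.84, 11.67 and 11.75 on the *bam*-Gal4 arrays and 11.98, 11.76 and 11.69 on the undriven arrays. The highest knockdown array was thus 0.43 below the lowest *bam*-Gal4 array and 0.45 below the lowest undriven array. In limma, *schuy* changed by −0.61 on the log2 scale relative to *bam*-Gal4 (SE 0.09, adjusted p = 0.00152) and by −0.66 relative to undriven testes (SE 0.09, adjusted p = 9.71e-04). Knockdown testes held 0.657 and 0.631 times the control level.

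*hale* (CG7570) is the next gene to *schuy* on 3L. Its log2 values were 10.47, 10.29 and 10.32 in knockdown, 11.08, 10.83 and 10.92 in *bam*-Gal4 and 11.09, 11.06 and 10.94 in undriven testes. Again no knockdown array reached a control array, with gaps of 0.36 to *bam*-Gal4 and 0.47 to the undriven control. The change of *hale* was −0.58 relative to *bam*-Gal4 (limma, SE 0.08, adjusted p = 0.00143) and −0.67 relative to undriven testes (SE 0.08, adjusted p = 7.04e-04). This is 0.667 and 0.629 times the control level, close to the values of its neighbour *schuy*.

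*sunz* (CG15179, 3R) stood at 10.12, 10.18 and 10.12 in knockdown, 10.71, 10.58 and 10.56 in *bam*-Gal4 and 10.82, 10.73 and 10.69 in undriven testes. Its knockdown arrays were the closest to each other of the 5 genes, with an SD of 0.03 (n = 3), and lay 0.38 and 0.51 below the nearest control arrays. Relative to *bam*-Gal4 testes *sunz* changed by −0.48 (limma, SE 0.07, adjusted p = 0.00113), and relative to undriven testes by −0.61 (SE 0.07, adjusted p = 3.31e-04), or 0.719 and 0.657 times the control level.

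*boly* (CG30362) lies on 2R next to *swif*, *cola* and *whip* and is the measured member of that cluster of neighbours. It had log2 values of 11.90, 12.01 and 12 in knockdown testes, against 12.49, 12.34 and 12.40 in *bam*-Gal4 and 12.55, 12.55 and 12.41 in undriven testes. The groups did not overlap, with gaps of 0.33 and 0.40. The decrease of *boly* was the smallest of the 4 by the point estimate, at −0.44 (limma, SE 0.07, adjusted p = 0.00231) and −0.53 (SE 0.07, adjusted p = 8.56e-04), or 0.737 and 0.691 times the control level. The 95% intervals of the 4 lower genes overlapped each other in each comparison and together ran from −0.81 to −0.28 relative to *bam*-Gal4 and from −0.86 to −0.38 against the undriven control.

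*soti* (CG8489, 3R) was the measured member that did not pass. Its log2 values were 9.91, 10.02 and 9.88 in knockdown, 9.97, 9.93 and 9.93 in *bam*-Gal4 and 9.90, 9.99 and 9.93 in undriven testes, so that the genotypes overlapped fully. By limma, *soti* changed by −0.0067 relative to *bam*-Gal4 (SE 0.06, adjusted p = 0.955) and by −0.0033 relative to undriven testes (SE 0.06, adjusted p = 0.978). The 95% intervals of these differences, −0.14 to 0.13 in each comparison, leave out a decrease as large as the smallest bound of the other members, −0.28.

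**Figure D2:**
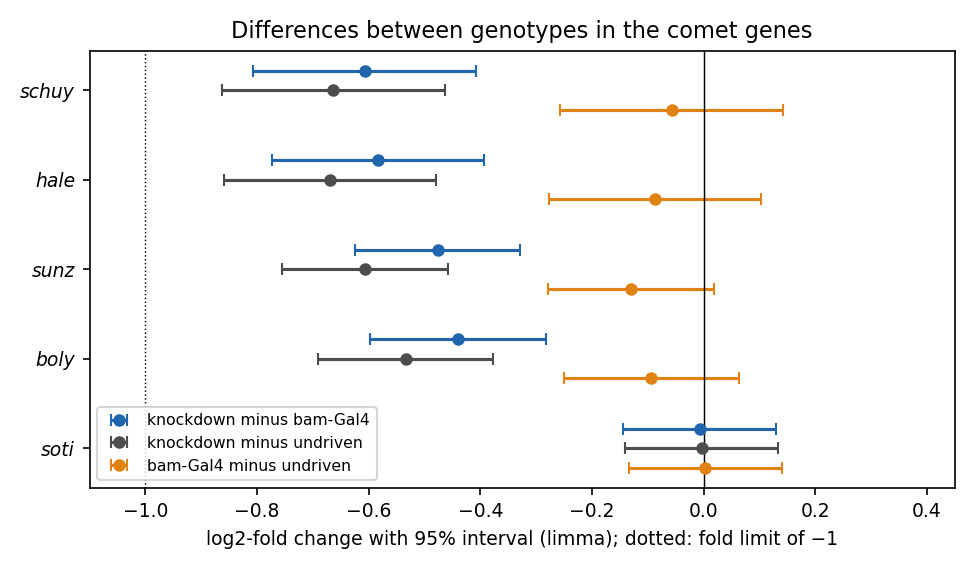
Log2-fold changes (x axis) of the 5 measured comet genes with 95% intervals from limma (9 arrays, 3 per genotype), for knockdown minus *bam*-Gal4, knockdown minus undriven and *bam*-Gal4 minus undriven; the dotted line marks a log2-fold change of −1. The intervals of *schuy*, *hale*, *sunz* and *boly* lie between −0.86 and −0.28 in both knockdown comparisons, and those of *soti* between −0.14 and 0.13.

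All 3 knockdown arrays were below all 6 control arrays for 4 of the 5 comet genes, a pattern that 11.5% of all probe sets showed. The order of the genotype means was knockdown, *bam*-Gal4, undriven from low to high for these 4 genes, and the controls overlapped each other in every one of them. Against the undriven control, *bam*-Gal4 testes had log2-fold changes of −0.06 for *schuy*, −0.09 for *hale*, −0.13 for *sunz*, −0.09 for *boly* and 0.0033 for *soti*, with adjusted p between 0.523 and 0.992 from limma. Limma found 0 of 5 comet genes different between the controls, with 0 at an unadjusted p under 0.05, where 2.08% of all probe sets differed in either direction. The largest of these differences, that of *sunz*, had a 95% interval of −0.28 to 0.02. Among the 18952 probe sets ordered from the lowest log2-fold change, *schuy* took rank 425 relative to *bam*-Gal4 and 436 relative to undriven testes, *hale* 483 and 430, *sunz* 721 and 540, and *boly* 860 and 717. *soti* stood near the middle, at ranks 9833 and 10297. Of the measured members, 4 lie on chromosome 3, whose homologues differ between knockdown and control males by the *Sb* mark. The lower genes *schuy*, *hale* and *sunz* and the gene that did not pass, *soti*, lie there, and *boly* lies on chromosome 2. The part of the *Sb* homologue in these changes was not tested. Over all named genes, each by its brightest probe set, 8.83% on 3L, 8.37% on 3R and 8.03% on 2R were lower against both controls. The share was 9.80% on 2L and 2.46% on the X chromosome. These shares count genes over whole arms and do not measure an effect of the *Sb* homologue on single genes.

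The arrays also differed in transcripts of tissues that lie beside the testis. Over 11 of 12 listed accessory gland genes (the *Acp* genes and *SP*), the mean log2 value was 10.87, 10.13 and 11.75 on the knockdown arrays, 8.13, 11.96 and 10.15 on the *bam*-Gal4 arrays and 10.49, 9.19 and 9.70 on the undriven arrays. The means of the 5 comet genes on the same arrays were 10.70, 10.75 and 10.68 in knockdown, 11.22, 11.07 and 11.11 in *bam*-Gal4 and 11.27, 11.22 and 11.13 in undriven testes. In knockdown and *bam*-Gal4 testes the array with the most accessory gland transcripts had the lowest comet mean, and in undriven testes it had the highest. All 11 accessory gland genes had positive log2-fold changes against both controls, with medians of 0.85 and 1.15, and limma passed 0 of them, with 0 at an unadjusted p under 0.05 relative to *bam*-Gal4 and 1 relative to undriven testes. Gut enzyme transcripts (11 of 16 listed genes) were highest in knockdown replicate 3 and undriven replicate 3, with means of 7.29 and 7.01, against 5.21 to 5.80 on the other arrays, and these arrays had the lowest comet means of their genotypes. *bam*-Gal4 replicate 2 had an accessory gland mean of 11.96 and a comet mean of 11.07, and knockdown replicate 3, the highest knockdown array in accessory gland transcripts, had 11.75 and 10.68. The part of these tissues in the decrease was not tested, and the fits that follow give only how far the log2-fold changes moved. Without knockdown replicate 3, *bam*-Gal4 replicate 2 and undriven replicate 3, the log2-fold changes were −0.62 and −0.70 for *schuy*, −0.62 and −0.70 for *hale*, −0.49 and −0.63 for *sunz* and −0.49 and −0.60 for *boly*, with adjusted p of at most 0.0209 from limma. Leaving these arrays out did not even out the accessory gland means. The means were 10.87 and 10.13 on the knockdown arrays kept, 8.13 and 10.15 on *bam*-Gal4 and 10.49 and 9.19 on undriven arrays. With the accessory gland mean as a covariate the log2-fold changes were −0.58 and −0.63 for *schuy*, −0.55 and −0.62 for *hale*, −0.46 and −0.58 for *sunz* and −0.42 and −0.50 for *boly*. The gut mean was not a covariate in any fit. Undriven replicate 1, the undriven array highest in accessory gland transcripts, was kept when arrays were left out for their load of other tissues.

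**Figure D3:**
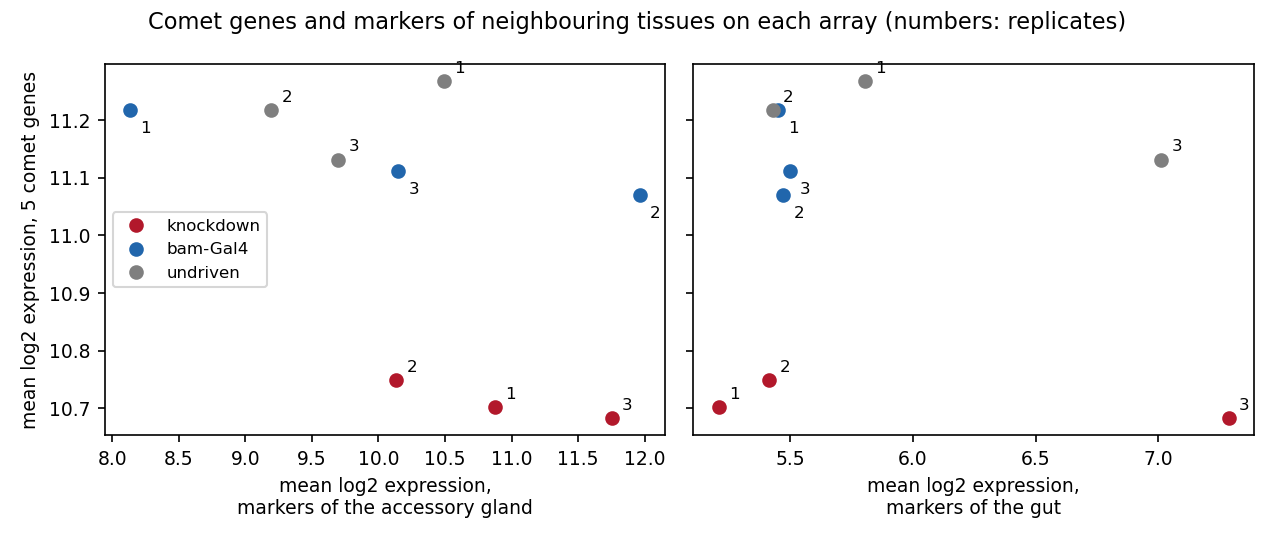
Mean log2 expression of the 5 measured comet genes (y axis) against the mean of 11 accessory gland markers (left) and of 11 gut markers (right) on each of the 9 arrays, with replicate numbers beside the points. The knockdown arrays lie between 10.68 and 10.75 on the y axis, below every control array. Their accessory gland means lie between 10.13 and 11.75, and those of the control arrays between 8.13 and 11.96.

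The log2 median of the arrays lay between 5.86 and 5.96, so that the comet genes, with values from 9.88 to 12.55, were far above the middle of each array. *tbrd-2* had log2 values of 8.06, 7.82 and 8.05 in knockdown testes, against 10.52, 10.52 and 10.73 in *bam*-Gal4 and 10.19, 10.39 and 10.36 in undriven testes. Among the markers of other testis cells, limma passed 0 of 7 spermatogonial genes and 0 of 7 genes of cyst cells and hub against both controls, with 1 and 0 of them at an unadjusted p under 0.05 in the same direction. The cyst and hub markers *tj*, *upd1* and *ptc* were dim throughout, with mean log2 values of 4.65, 4.04 and 4.56. Among 5 muscle sheath genes, *Act87E* was lower, at −0.29 and −0.37, and the others did not pass, nor did any of 11 gut and 6 fat body genes pass against both controls (0 of each at an unadjusted p under 0.05 in both).

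The cup genes, which share post-meiotic transcription with the comet genes, also held both lower members and members that did not pass. Of 10 measured cup genes out of 14 listed, 5 fell against both controls, where 5.88% of all probe sets fell, 0 rose, where 7.19% rose, and 5 did not pass. *t-cup*, on 2L, stood at 10.52, 10.41 and 10.50 in knockdown testes, against 11.47, 11.43 and 11.41 in *bam*-Gal4 and 11.26, 11.27 and 11.25 in undriven testes, with log2-fold changes of −0.96 and −0.78 (limma, adjusted p = 2.04e-05 and 4.12e-05). *w-cup* had log2-fold changes of −0.60 and −0.65, *f-cup* of −0.61 and −0.68, and *d-cup* of −0.46 and −0.39. The fifth lower gene was *s-cup*, at −0.35 and −0.31, whose dimmer probe set stood at 0.28 and 0.17 without passing the test. Those that did not pass included *c-cup* at −0.07 and −0.12 and *m-cup* at −0.11 and −0.13. *h-cup* stood at 0.28 and −0.27, and its level differed between the controls. Its log2-fold change was −0.56 in *bam*-Gal4 relative to undriven testes (limma, adjusted p = 0.0114). Of the 10 cup genes, 3 were above 0 relative to *bam*-Gal4 and 0 relative to undriven testes. The median of the list was −0.23 relative to *bam*-Gal4 and −0.30 relative to undriven testes. Whether the comet and cup lists differ was not tested.

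Genes of the Cullin-3 ligase that Scotti inhibits, and of caspase control, were set beside *soti*. Of 10 listed genes of the Cullin-3 ligase and of caspase control in individualization, 8 were measured, and 4 of them fell against both controls, beside 5.88% of all probe sets, 0 rose, beside 7.19%, and 4 did not pass. *klhl10*, the substrate adaptor that Scotti occupies, had log2 values of 9.28, 9.48 and 9.08 in knockdown testes, against 10.50, 10.21 and 10.56 in *bam*-Gal4 and 10.53, 9.93 and 9.92 in undriven testes. This gave log2-fold changes of −1.14 (limma, SE 0.18, adjusted p = 0.00202) and −0.85 (SE 0.18, adjusted p = 0.0094), and the knockdown arrays were below all control arrays. *Cul3*, the scaffold of the ligase, was lower, at −0.43 and −0.39. The log2-fold changes of its dimmer probe set, −0.89 and −0.63, did not pass the test (adjusted p = 0.0526 and 0.15 from limma). *Roc1b*, the RING subunit of the ligase, was lower, at −0.38 and −0.39, and so was *Duba*, a deubiquitinase needed for individualization, at −0.44 and −0.44. The measured caspase genes were not among the lower ones, with *Dronc* at 0.11 and 0.07 and *Dcp-1* at 0.48 and 0.39 (adjusted p = 0.0868 and 0.154 from limma). The caspase gene *Drice* and *Cyt-c-d* were listed but had no probe set of their own. *Dark*, the activator of *Dronc*, stood at −0.05 and 0.01. *Bruce*, a large inhibitor of apoptosis protein that the ligase marks, stood at −0.13 and −0.19. Over the list the median was −0.25 and −0.29.

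Transcripts that are made in spermatocytes and stored for spermatids were set beside them, and whether this list differs from the comet genes was not tested. Of 16 measured genes out of 17 listed, 1 fell against both controls, 0 rose and 15 did not pass in both comparisons, with medians of −0.04 and −0.04. A share of 1 in 16 is near the 5.88% of all probe sets that fell against both controls, and 7.19% rose. The lower gene was *CG9173*, which changed by −0.40 and −0.41 (limma, adjusted p = 0.00602 and 0.00558). *Mst77F*, which encodes a protein of condensed sperm chromatin, stood at 0.08 and 0.04, the protamine genes *ProtA* at −0.08 and −0.05 and *ProtB* at −0.08 and 0.01, and the sperm tail gene *Mst87F* at −0.06 and −0.11. The mean log2 value over the list was 12.61 to 12.68 on the knockdown arrays, 12.62 to 12.71 on the *bam*-Gal4 arrays and 12.66 to 12.73 on the undriven arrays. Many of these genes were brighter than the comet genes, with means over all arrays of 14.01 for *Mst77F* and 13.59 for *Mst87F*. The lower gene *CG9173* had a mean of 10.77, and *fzo*, which did not pass, 10.05. The cup gene *w-cup*, with a mean of 13.33, fell by −0.60 and −0.65. Whether signal near the top of the scale understates a change in the brightest genes was not tested. Of 16 genes for spermatocyte transcription factors, which include *tbrd-2* itself, 1 fell against both controls (*tbrd-2*) and 3 rose (*mia*, *Taf12L* and *sa*), where 7.19% of all probe sets rose. *mia* was higher by 1.89 and 1.48, *Taf12L* by 1.13 and 1.05 and *sa* by 0.61 and 0.97.

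**Figure D4:**
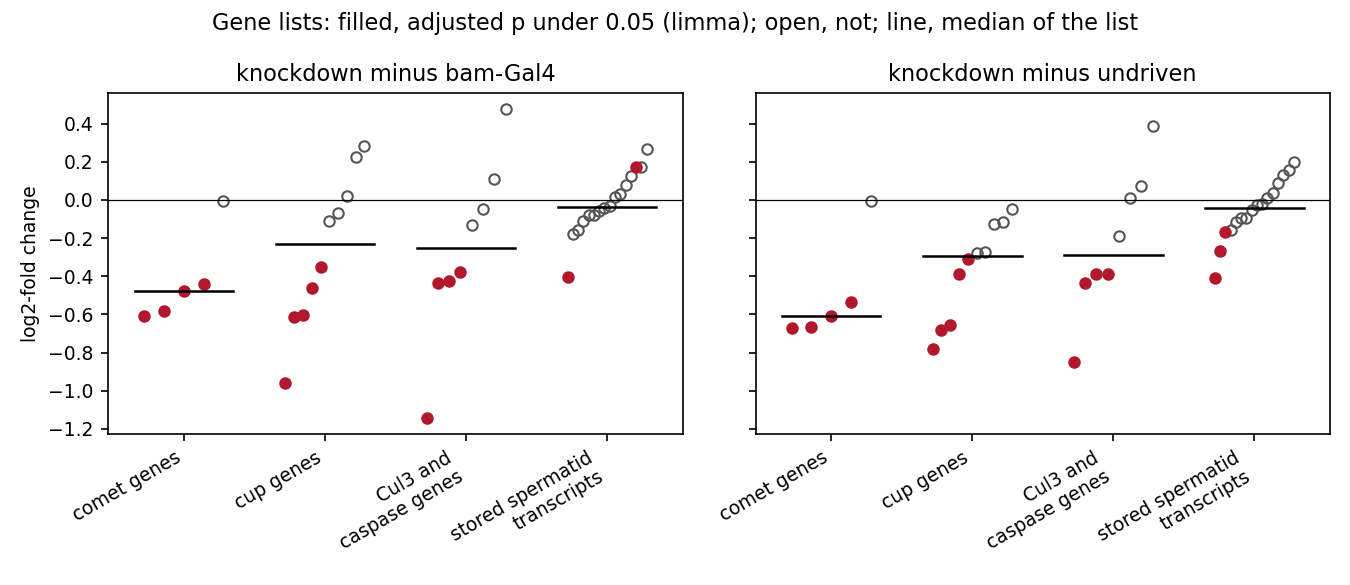
Log2-fold changes (y axis) of the measured members of 4 gene lists, each by its brightest probe set, for knockdown minus *bam*-Gal4 (left) and knockdown minus undriven (right); filled points passed an adjusted p under 0.05 (limma) and lines are list medians. The medians are −0.48 and −0.61 for the comet genes, −0.23 and −0.30 for the cup genes, −0.25 and −0.29 for the Cullin-3 and caspase genes, and −0.04 and −0.04 for the stored transcripts.

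Over the 6 pairs of the 4 lower comet genes, Pearson's r across the 9 arrays lay between 0.96 and 0.99. These genes were all lower on the knockdown arrays, so a high r over the 9 arrays follows from that difference. For the deviations from the genotype means, r lay between 0.45 and 0.87, where the arrays and their load of other tissues are shared. The pairs with *soti* had r between 0.04 and 0.14 over the 9 arrays, which likewise follows from its lack of a genotype difference. For the deviations from the genotype means, the pairs with *soti* had r between −0.03 and 0.36. The mean profile of the 5 comet genes, each centred on its own mean, was set against 11977 other named genes. The most alike were *sinah*, which encodes a relative of the ubiquitin ligase Sina, with r = 0.997, *CG8136* with 0.997, *CG6497* with 0.997, *CG7514* with 0.995 and *CG11475* with 0.994. Their log2-fold changes were −0.42 and −0.51 for *sinah*, −0.49 and −0.56 for *CG8136*, −0.82 and −0.94 for *CG6497*, −0.47 and −0.53 for *CG7514* and −0.60 and −0.62 for *CG11475*. These genes were picked for likeness to a profile that is low on the knockdown arrays, so their lower levels there follow from the choice. A high r was common, as 808 of the named genes had a value over 0.9, and genes on the same arrays are not independent replicates.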

How the data were processed

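Whole testes were profiled on Affymetrix Drosophila Genome 2.0 arrays. The authors read the scanned arrays with affy and deposited log2 values from RMA (background correction, quantile normalization and summary per probe set, 2 decimals). The methods say that, to compare with published arrays of another study, RMA was run over both sets together. They do not state if that joint run gave the values analysed here, and tool versions are not given in the sources used. Genotypes and replicate numbers came from the sample titles. RMA with quantiles sets changes relative to the other probe sets of an array.

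Symbols came from the platform annotation (13647 probe sets with 1 symbol, 402 with several, 4903 not named here), brought up to date with the RefSeq gene table of Release 6 plus ISO1 MT. A gene with several probe sets is given by the brightest.

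Limma 3.58.1 in R 4.3.3 (lmFit, eBayes) estimated 1 mean for each genotype from the 9 arrays together, unfiltered, with 6 residual degrees of freedom (9.23 with those borrowed by eBayes). P-values were adjusted over all 18952 probe sets within each comparison. The script was tested on simulated data. The number of arrays limits the precision. Alternatives were the replicate block, fits of 6 arrays, other normalizations, filters, variance models and weights, and leaving out arrays. All comet genes are named, and from each other list up to 4 members lower or higher against both controls, or the 2 brightest; further list members were named after their values were seen. The members and lists were chosen with earlier results of these data known. No sequences are printed. Plots were made in Python 3.11.15 (matplotlib 3.10.9).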

Additional observations from a re-analysis of the deposited data

How the results depend on the processing

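The counts of comet genes past the test, 4 lower against each control and against both, 0 past the fold limit and 0 between the controls, had the same value in all 20 alternatives, 9 of which left out an array. Log2-fold changes were followed over 19 alternatives, not all of which could move them. The replicate block, the fits to each comparison alone, the filters and the variance model changed only their SE and p-values. Leaving out an array of one genotype left the log2-fold changes between the other genotypes as they were. Against *bam*-Gal4 and the undriven control, *schuy* ran from −0.65 to −0.54 and −0.72 to −0.58. In the same order, *hale* ran from −0.64 to −0.52 and −0.73 to −0.62. The ranges were −0.52 to −0.43 and −0.64 to −0.57 for *sunz*, and −0.49 to −0.40 and −0.60 to −0.50 for *boly*. The highest adjusted p of these 4 genes was 0.0209 from limma. *soti* lay between −0.05 and 0.03, with adjusted p of at least 0.644. With the replicate block, 4 comet genes were lower against both controls. No pairing by replicate number was seen, since deviations of same-numbered arrays had correlations from −0.58 to 0.33 and 1 of 9 arrays was most like an array of its own number. This check could miss a pairing, as each genotype had 3 arrays with uneven loads of other tissues. Counting all probe sets changes nothing, as each measured gene has 1. With 3 arrays per genotype, a change in *soti* smaller than its interval could not be seen, and p-values measure the spread between pools of animals.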

Other observations

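Genes lower in knockdown testes against both controls were unevenly spread over the chromosome arms, a pattern noticed in the data and not tested. By the brightest probe set of each named gene, 46 of 1873 genes on the X chromosome (2.46%) had an adjusted p under 0.05 from limma and were lower against both controls, against 9.80% of 2205 on 2L, 8.03% of 2427 on 2R, 8.83% of 2344 on 3L and 8.37% of 2974 on 3R. All named genes were counted here, with no limit on their level in testis. The median log2-fold change of the genes on the X chromosome was 0.05 relative to *bam*-Gal4 and 0.02 relative to undriven testes. On the other arms the medians were at most 0.0133 and 0.0067. A driver copy lies on the X chromosome in knockdown and *bam*-Gal4 males and not in undriven males. None of the 7 comet genes lies on the X chromosome.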
